A study of Mus musculus with 14 samples.

Results

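The genes described here are the cyclins, the cyclin-dependent kinases (CDKs), the CDK inhibitors, the E2F transcription factors and the proteins that work directly on them, 64 of the 22155 genes counted in mouse MLL-AF9 leukemia. They were taken by symbol, although this set and the lists of other genes were drawn up with earlier results of these data known. The rule takes cyclins A to L, the numbered CDKs, symbols that begin with Cdkn1, Cdkn2 or Cdkn3, E2f1 to E2f8, and Rb1, Rbl1, Rbl2, Tfdp1, Tfdp2, Cks1b, Cks2, Wee1, Cdc25a, Cdc25b and Cdc25c, and leaves out Ccng1, Cdkn1a and Cdk9. It also takes Cdkn2aip and Cdkn2aipnl, which are not inhibitors but share the start of their symbols.

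Messenger RNA was sequenced from MLL-AF9-Cas9+ cells, a mouse leukemia model that carries the MLL-AF9 fusion oncogene and expresses the Cas9 nuclease. The 3 sgSgf29 libraries came from cells given a lentiviral guide RNA against Sgf29, a chromatin reader of the SAGA and ATAC acetyltransferase complexes. The 3 sgCtrl libraries came from cells given a control guide RNA in the same ipUSEPR vector. Both groups carried MLL-AF9 and Cas9 and were kept in puromycin at 2 μg/ml for 3 days, and the cells of a culture need not all carry the same edit. No source used here says whether replicate numbers stand for separate cultures or for different guide sequences, so p-values measure the spread between these libraries, which may be technical.

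Cyclins switch CDKs on, and each cyclin is made and destroyed at its own stage of the cell cycle. D cyclins with Cdk4 or Cdk6 start the phosphorylation of the retinoblastoma family of pocket proteins, which frees E2F factors to transcribe the genes of DNA synthesis, and E, A and B cyclins then carry the cell through replication and into mitosis. Inhibitors of the Ink4 and Cip/Kip families hold these kinases back, and in the blood system their levels change as progenitors leave the cycle and mature. Another branch of the same families, such as Cdk7 with Ccnh, phosphorylates RNA polymerase II.

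Many mitotic genes carry a CCAAT box, bound by NF-Y, and a cell cycle genes homology region (CHR), bound by the DREAM and MuvB complexes. The promoters of Cdk1, Ccnb1 and Ccnb2 are printed because Cdk1 and Ccnb1 were lower and Ccnb2 was higher in the sgSgf29 cells. Each window runs from 250 bases before to 50 bases after the RefSeq start of the gene on GRCm38.p6, written 5′ to 3′ along the gene. Capitals mark the CCAAT box, the CHR core spelled TTTGAA, and E2F sites spelled TTTCCCGC, TTTCGCGC, TTTGCCGC or TTTGGCGC, all searched on both strands, so that a match on the other strand shows as its reverse complement.
Cdk1 promoter, chr10:69352863-69353162, minus strand: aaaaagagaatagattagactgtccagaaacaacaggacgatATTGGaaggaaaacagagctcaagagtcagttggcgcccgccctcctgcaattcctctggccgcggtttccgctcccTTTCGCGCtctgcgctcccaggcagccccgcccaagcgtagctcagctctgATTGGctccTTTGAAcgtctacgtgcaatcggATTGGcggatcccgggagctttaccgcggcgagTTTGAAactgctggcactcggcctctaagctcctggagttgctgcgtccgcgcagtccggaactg
Ccnb1 promoter, chr13:100786437-100786736, minus strand: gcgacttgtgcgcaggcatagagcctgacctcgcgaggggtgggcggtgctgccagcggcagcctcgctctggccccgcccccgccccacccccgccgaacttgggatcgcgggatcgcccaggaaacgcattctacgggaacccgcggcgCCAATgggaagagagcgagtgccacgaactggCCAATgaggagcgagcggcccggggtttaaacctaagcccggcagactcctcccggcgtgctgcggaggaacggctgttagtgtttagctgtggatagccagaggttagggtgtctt
Ccnb2 promoter, chr9:70421505-70421804, minus strand: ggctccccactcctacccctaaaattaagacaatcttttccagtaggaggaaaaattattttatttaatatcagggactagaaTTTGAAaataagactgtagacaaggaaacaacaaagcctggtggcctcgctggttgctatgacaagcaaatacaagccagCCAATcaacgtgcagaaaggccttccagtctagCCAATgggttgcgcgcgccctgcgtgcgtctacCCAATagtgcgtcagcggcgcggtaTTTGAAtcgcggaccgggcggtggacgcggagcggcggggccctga
The Cdk1 window held 1 E2F match, 2 CHR matches and 3 CCAAT matches. The Ccnb2 window held 2 CHR and 3 CCAAT matches, and the Ccnb1 window held 2 CCAAT matches, with neither of the other motifs in these letters. RefSeq windows were found for 50 of the 64 genes, 58 windows in all. An E2F match stood in 17.2% of the 58 windows, against 2.26% of all 32851 promoter windows of the same length. A CHR match stood in 20.7% of the 58 and 17.9% of all windows, and CCAAT in 29 of the 58 and 37.4% of all. These matches describe letters and not binding.

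Reads assigned to genes numbered 16085601 to 20185751 in the sgSgf29 libraries and 16003990 to 21786618 in the sgCtrl libraries. Sgf29 itself was lower in every sgSgf29 library. It measured 12.6, 13.4 and 17.4 CPM in the sgSgf29 libraries, against 36.2, 40.4 and 40.4 CPM in the sgCtrl libraries, where CPM is the count scaled to a fixed library total after trimmed-mean (TMM) normalisation. Mature myeloid markers moved with the groups as well. Of 19 tested, 15 were higher and 3 (Ly6c2, Ltf and Camp) lower in the sgSgf29 cells, against 35.4% higher and 34.4% lower among all genes tested. The summed level of the markers ranged over 25228 to 26887 CPM in the sgSgf29 libraries and 9369 to 9824 CPM in the sgCtrl libraries, with Mrc1 at 0 counts in every library. S100a8 and S100a9 carried most of these sums, and the other markers summed to 4924 to 4948 CPM in the sgSgf29 libraries and 3274 to 3427 CPM in the sgCtrl libraries. These other markers include Ly6c2, which fell, with means of 1035 CPM in the sgSgf29 libraries and 1490 CPM in the sgCtrl libraries. Of 10 genes of MLL-AF9 leukemia and myeloid progenitors, 6 were lower and 3 (Ptprc, Spi1 and Meis1) higher, with sums of 10384 to 10744 CPM in the sgSgf29 libraries and 14949.7 to 16346 CPM in the sgCtrl libraries. Elane made up most of the progenitor sums, and the other 9 genes gave 1268 to 1312 CPM in the sgSgf29 libraries and 1476 to 1575 CPM in the sgCtrl libraries. The part of these markers in the results that follow was not tested.

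Of the 64 genes, 60 had enough counts to be tested, and at a threshold of 0.05 on the adjusted p, 29 of them were lower in the sgSgf29 cells and 16 were higher. Adjusted p-values here and below are from edgeR's quasi-likelihood test with Benjamini-Hochberg adjustment over 11169 genes. The called share was 75% of the 60, against a background of 69.8% of all genes tested. Lower calls took 48.3% of the 60 against 34.4% of all genes, and higher calls took 26.7% against 35.4%. These shares of all genes are also the background for the counts by role below. The median log2 fold change (sgSgf29 over sgCtrl) was -0.18 over the 60 genes and 0.01 over all genes. The libraries of the groups did not overlap for 46 genes, 76.7% against 72.1% of all genes, 30 lower (background 35.1%) and 16 higher (background 37%). Calls with a change of at least 2-fold were fewer, 4 genes or 6.67% of the 60 against 14.8% of all genes, and these were Wee1, Cdc25b, Cdkn1c and Cdkn2c. With scaling by library size alone, which moved the median of all genes to 0.24, 18 of the 60 were lower and 25 higher. Of all 11169 genes, 2385 were then lower and 5575 higher, which is the background for the counts with library size scaling below. In bulk RNA, fewer cells of a kind and less RNA per cell cannot be told apart.

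**Figure D1:**
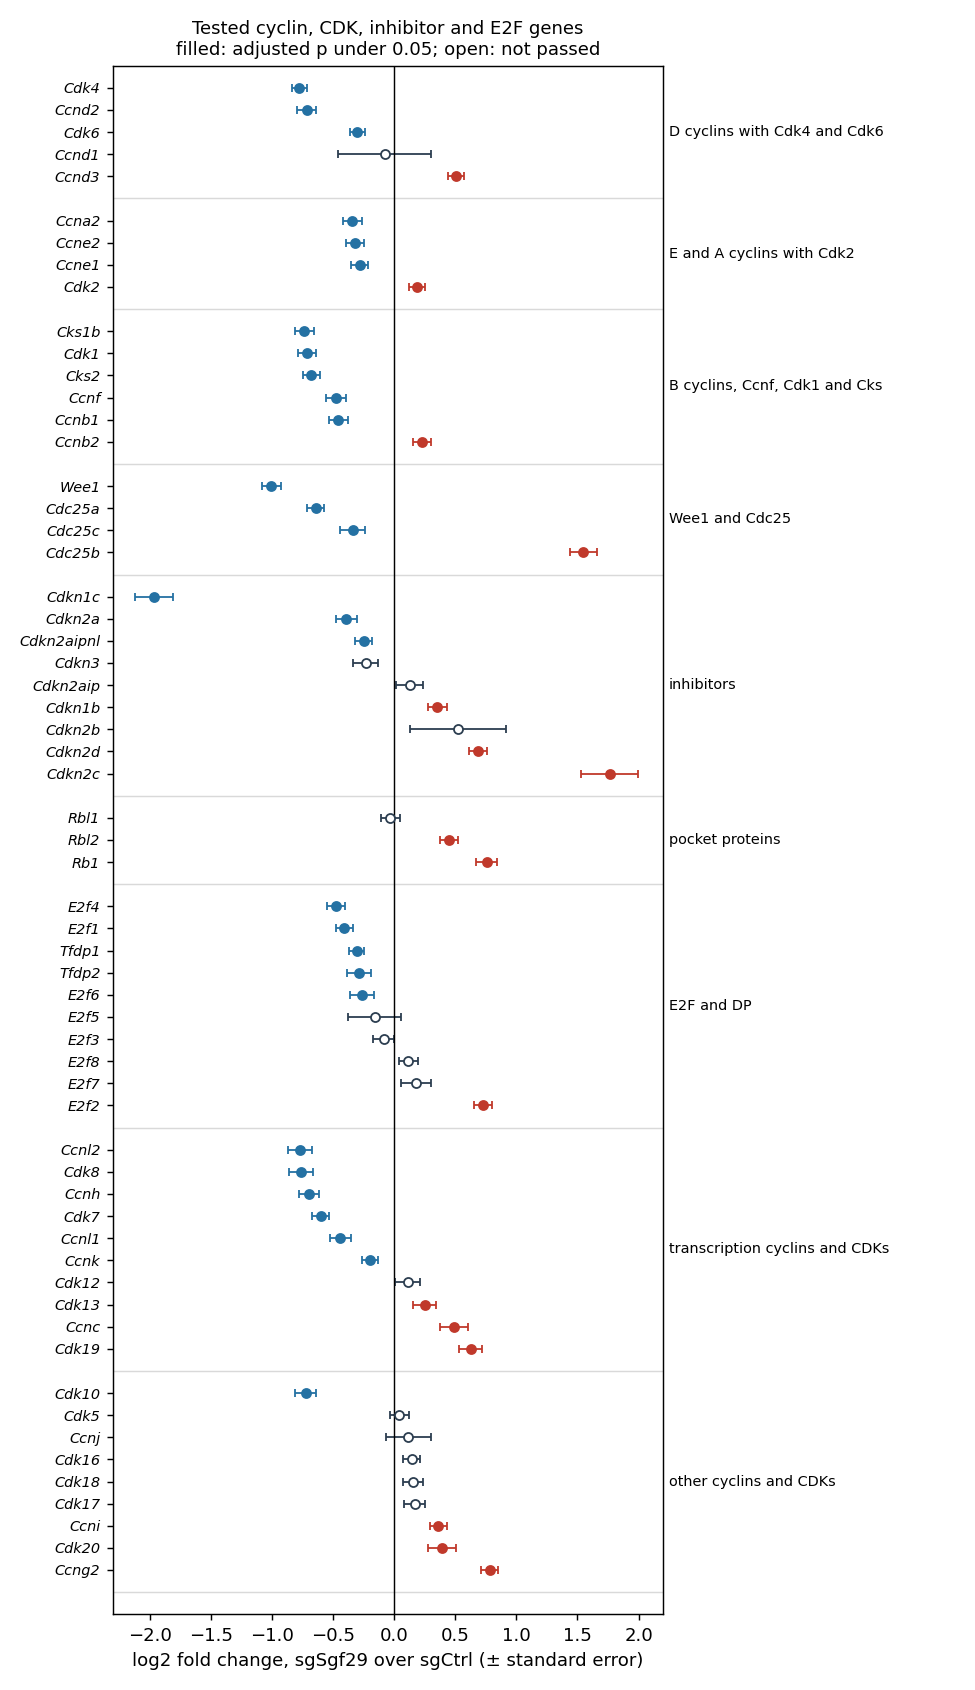
Log2 fold change (sgSgf29 over sgCtrl, horizontal axis) of the 60 tested genes, grouped by role (Cdkn2aip and Cdkn2aipnl are drawn with the inhibitors and Ccnf with the B cyclins), with points for the fitted values, filled where called and open where not, and bars for the standard error. Values ran between -1.97 for Cdkn1c and 1.76 for Cdkn2c, with 29 genes called lower and 16 higher with TMM, and 18 lower and 25 higher with library size scaling.

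No counts were found in any library for 3 genes, the germline cyclin Ccna1, Ccnb3 and Cdk15, where 0 counts allow up to 0.201 CPM in the shallowest library. Cdk14 had 16 counts in all 6 libraries together and was not tested. The exons of 14 of the 64 genes overlap another counted gene on the opposite strand (Ccnd3 with Bysl, Cdk4 with Tspan31, Ccne2 with Ints8, Ccna2 with Exosc9, Cdk2 with Pmel, Cdc25b with Spef1, Cdc25c with Gm3550, Rb1 with Rcbtb2 and Lpar6, Rbl2 with Aktip, E2f5 with 1810022K09Rik, Ccnc with Tstd3, Ccnh with Rasa1, Cdk10 with Spata2l and Cdk17 with Elk3), and some of their reads cannot be assigned with certainty, since the strand setting of the counting is not given. RefSeq lists a pseudogene for Ccnd3, Ccnb2 and Tfdp1, which could share their reads.

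The kinases and cyclins that open the cycle did not move together. Cdk4, Ccnd2 and Cdk6 were lower and Ccnd3 was higher in the sgSgf29 cells. Cdk4, the principal partner of D cyclins, on chromosome 10 from 127063535 to 127067288 (GRCm38), measured 234, 223 and 237 CPM in the sgSgf29 libraries, against 384, 394 and 411 CPM in the sgCtrl libraries. Every sgSgf29 library lay below every sgCtrl library, with a log2 fold change of -0.78 (SE 0.06, adjusted p = 8.2e-10). Cdk6, its close relative, had 230.2, 231 and 243 CPM in the sgSgf29 libraries, against 275, 291 and 300.2 CPM in the sgCtrl libraries. These groups did not overlap either, but the change was smaller, -0.30 (SE 0.06, adjusted p = 0.00026), and was -0.07 (adjusted p = 0.32) with library size scaling.

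Ccnd2, the D cyclin that answers growth factor signals in many blood cells, on chromosome 6 from 127125162 to 127152188, had 83.03, 71.98 and 63.9 CPM in the sgSgf29 libraries, against 115, 123 and 121 CPM in the sgCtrl libraries. All sgSgf29 values were lower, with a log2 fold change of -0.72 (SE 0.08, adjusted p = 7.3e-08). Ccnd3, the most abundant D cyclin here by counts per exon length, on chromosome 17 from 47505051 to 47599689, went the other way, with 488, 466 and 449 CPM in the sgSgf29 libraries, against 326, 312 and 349.6 CPM in the sgCtrl libraries. The groups did not overlap, and the log2 fold change was 0.51 (SE 0.07, adjusted p = 9.7e-07). Ccnd1 was barely detected, with 0.879, 0.541 and 1.03 CPM in the sgSgf29 libraries, against 0.953, 0.870 and 0.749 CPM in the sgCtrl libraries. Its groups overlapped, and the log2 fold change of -0.08 had a 95% interval of -0.87 to 0.72 (adjusted p = 0.87), and no difference was detectable at this depth.

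The plot of shares sets each gene against its own family in the same library, per exon length, so that it does not depend on library scaling. Ccnd3 made up 87.1% ± 0.958 in the sgSgf29 libraries and 74.4% ± 1.30 in the sgCtrl libraries of the D cyclins, and Ccnd2 12.6% ± 0.993 in the sgSgf29 libraries and 25.3% ± 1.27 in the sgCtrl libraries. Cdk4 took 80.9% ± 0.386 in the sgSgf29 libraries and 85.5% ± 0.207 in the sgCtrl libraries of Cdk4 and Cdk6 together. The groups did not overlap for these shares, while that of Ccnd1, the scarcest D cyclin, overlapped. With 3 libraries against 3 an exact two-sided permutation test cannot go below 0.10, and the shares of Ccnd2, Ccnd3, Cdk4 and Cdk6 reached that value (adjusted p = 0.183 over the shares of all families).

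**Figure D2:**
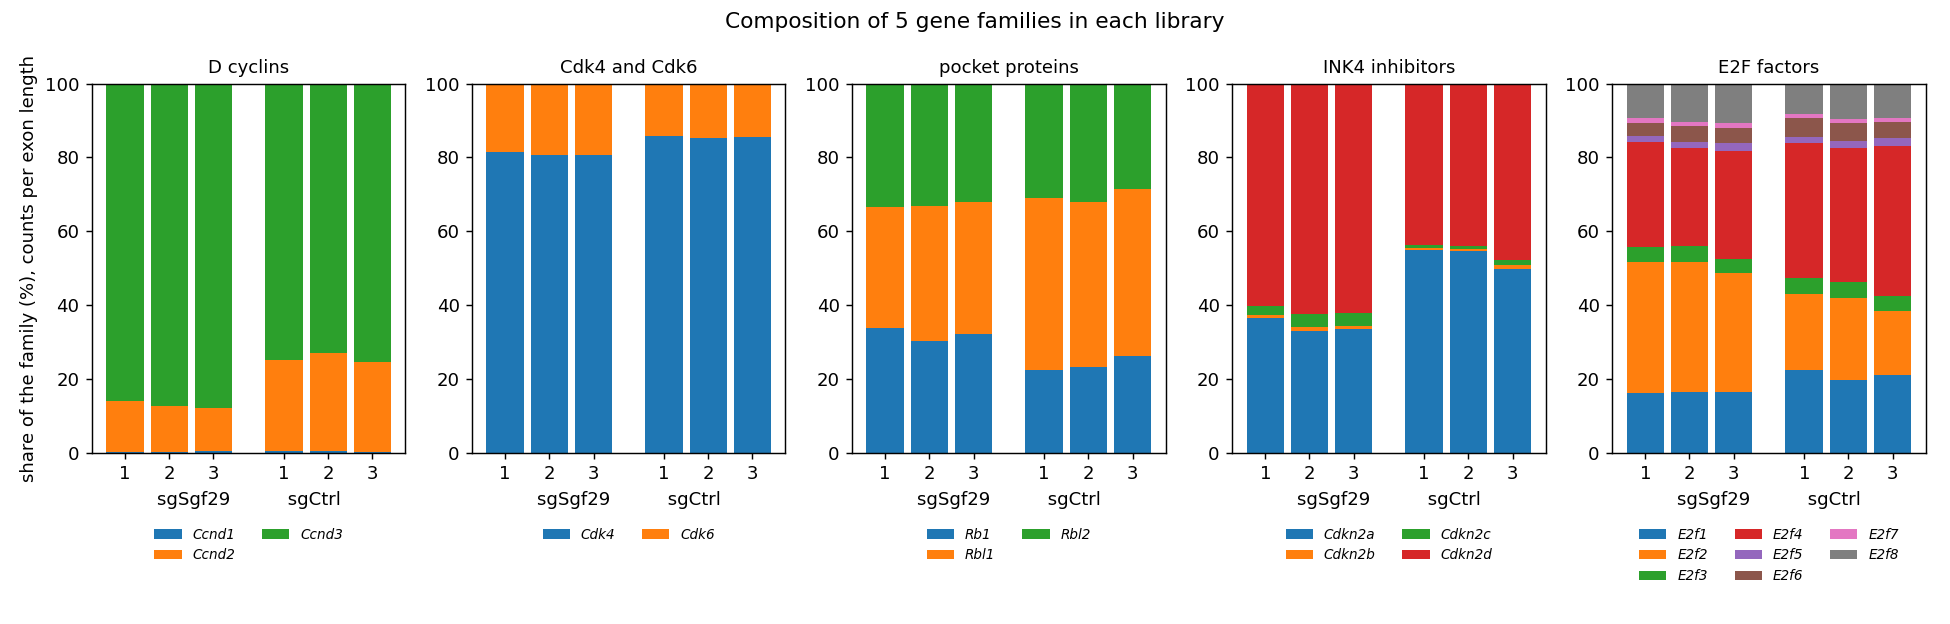
Share (%) of each gene in its family's counts per exon length, stacked for each library, with the 3 sgSgf29 bars left of the 3 sgCtrl bars in each of 5 families. Ccnd3 averaged 87.1% in the sgSgf29 libraries and 74.4% in the sgCtrl libraries, and E2f2 averaged 34.3% in the sgSgf29 libraries and 20.1% in the sgCtrl libraries.

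For the stage of DNA synthesis, both E cyclins and Ccna2 were lower and Cdk2 was higher in the sgSgf29 cells. Ccne1, which drives entry into replication with Cdk2, had 45.4, 42.8 and 47.1 CPM in the sgSgf29 libraries, against 56.5, 54.2 and 53.6 CPM in the sgCtrl libraries. It fell with no overlap, with a log2 fold change of -0.28 (SE 0.07, adjusted p = 0.0013). Ccne2, its paralog, had 36.3, 41.7 and 43.5 CPM in the sgSgf29 libraries, against 49.9, 50.6 and 51.4 CPM in the sgCtrl libraries. It also fell without overlap (log2 fold change -0.32, SE 0.08, adjusted p = 0.00094), and the share of Ccne1 in the pair was 59.4% ± 2.45 in the sgSgf29 libraries and 58.7% ± 0.988 in the sgCtrl libraries (exact permutation p = 0.8), with a difference that changed sign when sgSgf29 replicate 1 was left out.

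Ccna2, the cyclin of S phase and of the approach to mitosis, had 72.6, 81.1 and 92.3 CPM in the sgSgf29 libraries, against 104, 99.8 and 108 CPM in the sgCtrl libraries. Its groups did not overlap, although the sgSgf29 libraries differed more among themselves than the sgCtrl libraries did, and its log2 fold change was -0.34 (SE 0.08, adjusted p = 0.00049). Cdk2, the kinase of these cyclins, had 142, 149.9 and 136 CPM in the sgSgf29 libraries, against 126, 129.8 and 120.0 CPM in the sgCtrl libraries. It was higher in each sgSgf29 library than in any sgCtrl library, with a log2 fold change of 0.19 (SE 0.06, adjusted p = 0.013), and without sgSgf29 replicate 2 the adjusted p was 0.066. With library size scaling the log2 fold changes of Ccne1, Ccne2 and Ccna2 were -0.05, -0.09 and -0.11, with adjusted p-values of 0.56, 0.35 and 0.23.

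Of the mitotic kinase Cdk1, the B cyclins and the Cks adaptors, 4 were lower and 1 was higher among 5 tested, with a median log2 fold change of -0.68, and each kept its call with library size scaling. With Ccnf, which the plot groups with them, 5 of 6 were lower and the median was -0.58. Cdk1, the kinase that drives mitosis, on chromosome 10 from 69335146 to 69352912, had 93.8, 105 and 116 CPM in the sgSgf29 libraries, against 169.9, 171 and 176 CPM in the sgCtrl libraries. The highest sgSgf29 library was well below the lowest sgCtrl library, with a log2 fold change of -0.71 (SE 0.07, adjusted p = 2.3e-08). Ccnb1, the main mitotic cyclin, had 78.7, 90.6 and 99.3 CPM in the sgSgf29 libraries, against 130.3, 119 and 119 CPM in the sgCtrl libraries. All sgSgf29 values were below all sgCtrl values, with a log2 fold change of -0.46 (SE 0.08, adjusted p = 2.1e-05).

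Ccnb2 is a B cyclin found at the Golgi. Its window holds 2 CHR matches, as do those of Cdk1, Cks1b and Ccnf, while those of Ccnb1 and Cks2 hold 0. Only TTTGAA was searched, and near spellings, such as the tttaaa in the printed Ccnb1 window, were not counted. A count of 0 therefore does not show that a CHR is absent. Ccnb2 had 82.04, 90.01 and 100.2 CPM in the sgSgf29 libraries, against 75.7, 75.4 and 80.8 CPM in the sgCtrl libraries. It was the only one of these 5 that was higher in the sgSgf29 cells, 0.23 (SE 0.07, adjusted p = 0.0081), and without sgSgf29 replicate 3 the adjusted p was 0.061. Cks1b, a small adaptor of CDKs that also helps the SCF ligase take p27, had 87.5, 84.5 and 101 CPM in the sgSgf29 libraries, against 155, 137 and 163 CPM in the sgCtrl libraries. Cks2, its paralog, had 86.7, 92.04 and 98.01 CPM in the sgSgf29 libraries, against 142, 141 and 159 CPM in the sgCtrl libraries. Both adaptors fell without overlap, with log2 fold changes of -0.73 (SE 0.08, adjusted p = 4.5e-08) for Cks1b and -0.68 (SE 0.07, adjusted p = 2.6e-08) for Cks2. Ccnf, which is a substrate receptor of the SCF ligase and binds no CDK, averaged 61.6 ± 5.41 CPM in the sgSgf29 libraries and 86.03 ± 9.29 CPM in the sgCtrl libraries (SD, n = 3 each) and fell as well (-0.48, adjusted p = 2.5e-05). Per kb of all annotated exons joined, these adaptors ranked highest of the 64 genes. Cks2 had 133 ± 8.16 CPM per kb in the sgSgf29 libraries and 213 ± 14.5 CPM per kb in the sgCtrl libraries. Cks1b had 80.9 ± 7.94 CPM per kb in the sgSgf29 libraries and 135 ± 11.98 CPM per kb in the sgCtrl libraries. The rank depends on this length, 692 bases for Cks2 and 3249 bases for Cdk4, which may differ from that of the RNA present.

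**Figure D3:**
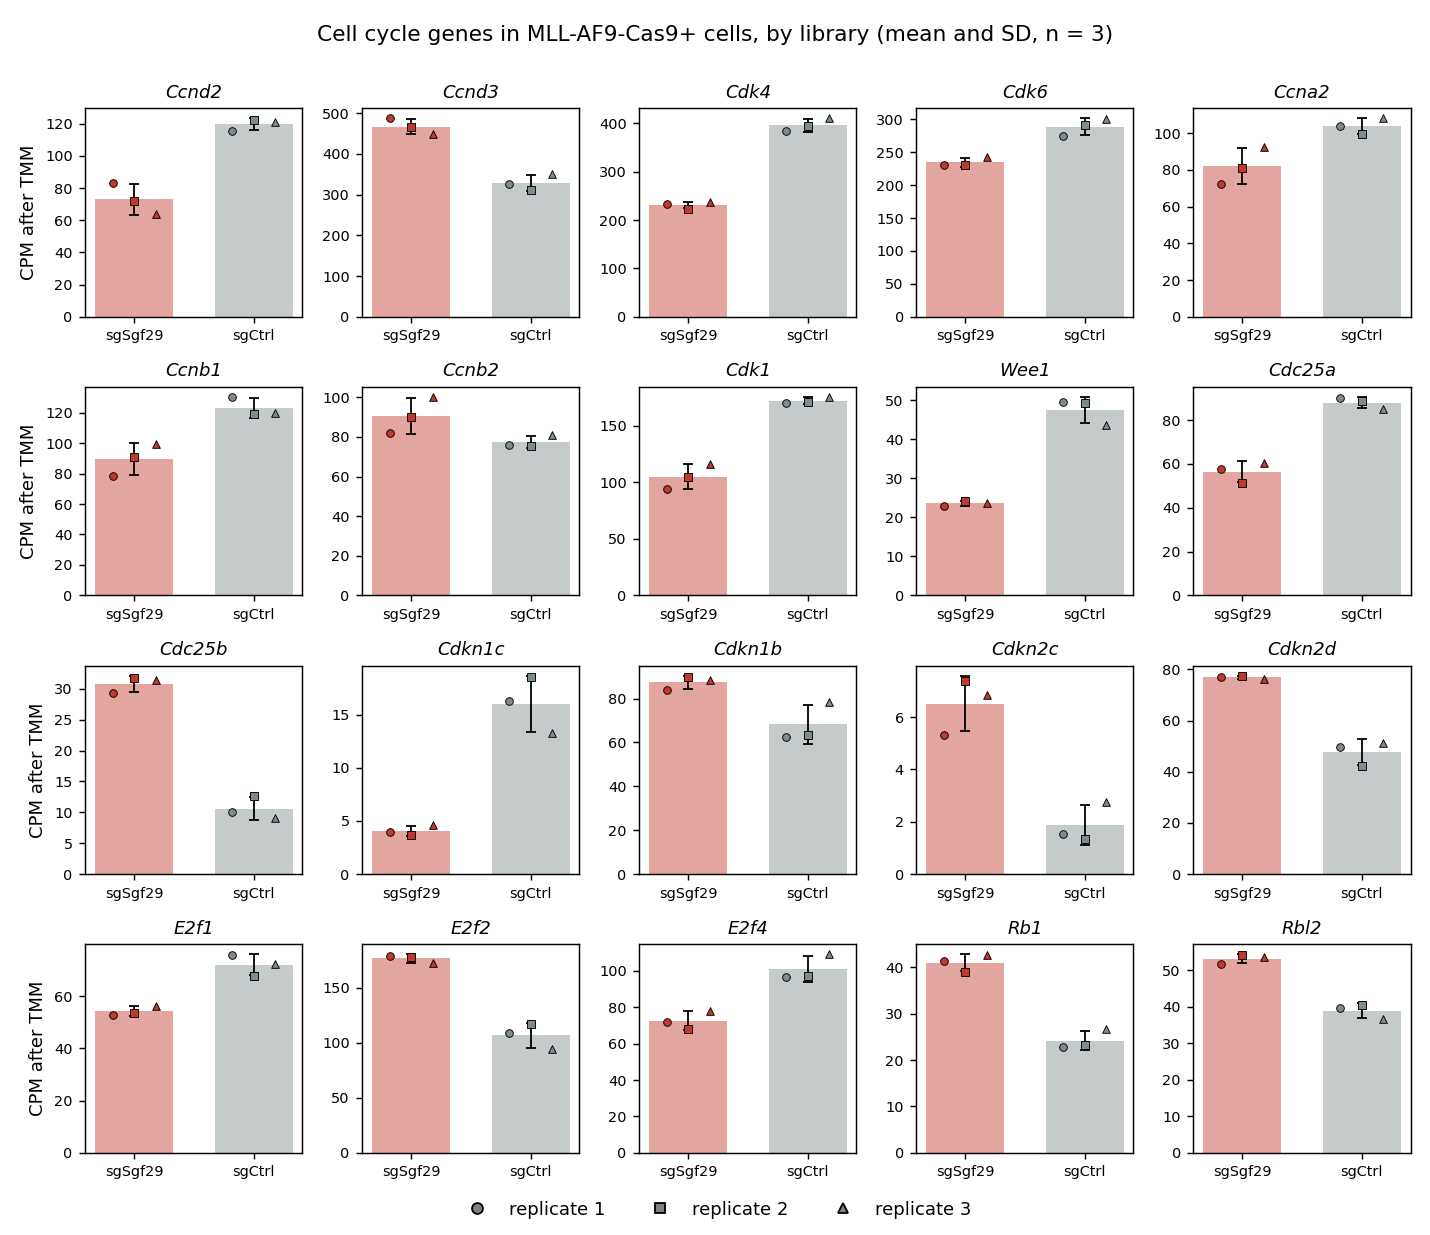
CPM after TMM scaling of selected genes in each library, with the 3 sgSgf29 points left of the 3 sgCtrl points and bars for group means with the SD of 3 libraries. Cdk1 lies between 93.8 and 116 CPM in the sgSgf29 libraries and between 169.9 and 176 CPM in the sgCtrl libraries.

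Wee1 and the Cdc25 phosphatases place and remove the inhibitory phosphates of CDKs, and 3 of these 4 genes were lower in the sgSgf29 cells. Wee1, the kinase, on chromosome 7 from 110122059 to 110143299, had 22.97, 24.3 and 23.7 CPM in the sgSgf29 libraries, against 49.6, 49.4 and 43.7 CPM in the sgCtrl libraries. The sgSgf29 libraries stood close together, well below the sgCtrl libraries, with a log2 fold change of -1.004 (SE 0.08, adjusted p = 7.5e-10). Cdc25a, the phosphatase of the G1 to S step, had 57.7, 51.2 and 60.4 CPM in the sgSgf29 libraries, against 89.98, 88.9 and 85.03 CPM in the sgCtrl libraries. The groups were apart, with a log2 fold change of -0.64 (SE 0.07, adjusted p = 8.1e-08).

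Cdc25b, which acts at the start of mitosis, on chromosome 2 from 131186436 to 131198511, had 29.2, 31.7 and 31.4 CPM in the sgSgf29 libraries, against 10.1, 12.7 and 9.09 CPM in the sgCtrl libraries. It was 2.92-fold higher with no overlap, 1.55 (SE 0.11, adjusted p = 1.6e-10) on the log2 scale. Cdc25c, the third phosphatase, had 13.7, 14.6 and 16.1 CPM in the sgSgf29 libraries, against 19.6, 17.5 and 19.1 CPM in the sgCtrl libraries. Its values fell below all sgCtrl values, with a log2 fold change of -0.34 (SE 0.10, adjusted p = 0.0068), but with library size scaling the change was -0.11 (adjusted p = 0.38).

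The inhibitors went both ways, with 3 higher, 2 lower and 2 not past the threshold among 7 tested, while library size scaling gave 3 higher and 1 lower. With TMM, 35.4% of all genes were higher and 34.4% lower, and with library size scaling 5575 of 11169 were higher and 2385 lower. Cdkn2c, which encodes the Cdk4 and Cdk6 inhibitor Ink4c, on chromosome 4 from 109660876 to 109666756, had 5.33, 7.39 and 6.84 CPM in the sgSgf29 libraries, against 1.53, 1.34 and 2.75 CPM in the sgCtrl libraries. It was 3.39-fold higher with no overlap at low counts, 1.76 (SE 0.24, adjusted p = 1.2e-06). Cdkn2d, which encodes Ink4d of the same family, had 77.2, 77.3 and 76.1 CPM in the sgSgf29 libraries, against 49.6, 42.05 and 51.4 CPM in the sgCtrl libraries. Every sgSgf29 library was higher, with a log2 fold change of 0.69 (SE 0.07, adjusted p = 6.4e-08). Cdkn1b, which encodes p27Kip1, an inhibitor of CDKs bound to E and A cyclins, had 84.1, 89.8 and 88.4 CPM in the sgSgf29 libraries, against 62.7, 63.6 and 78.6 CPM in the sgCtrl libraries. It was higher without overlap, with a log2 fold change of 0.35 (SE 0.08, adjusted p = 0.00046), although sgCtrl replicate 3 was close to the sgSgf29 libraries.

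Cdkn1c, an imprinted gene that encodes p57Kip2 and is known for quiescence of blood stem cells, on chromosome 7 from 143458339 to 143461059, had 3.98, 3.65 and 4.59 CPM in the sgSgf29 libraries, against 16.3, 18.5 and 13.2 CPM in the sgCtrl libraries. It was 3.91-fold lower in the sgSgf29 cells, the largest change in either direction among the 60, -1.97 (SE 0.15, adjusted p = 4.9e-10). Cdkn2a, which encodes p16Ink4a and, in another reading frame, p19Arf, had 34.7, 30.3 and 30.6 CPM in the sgSgf29 libraries, against 46.6, 39.04 and 39.8 CPM in the sgCtrl libraries. It fell without overlap (log2 fold change -0.39, SE 0.09, adjusted p = 0.00041), gene counts do not separate its products, and with library size scaling the change was -0.16 (adjusted p = 0.097). Per exon length, Cdkn2d made up 61.7% ± 1.21 in the sgSgf29 libraries and 45.1% ± 2.31 in the sgCtrl libraries of the Ink4 family and Cdkn2a 34.3% ± 1.84 in the sgSgf29 libraries and 53.2% ± 3.01 in the sgCtrl libraries, without overlap.

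Cdkn2b, the Ink4b gene, was near the detection limit, with 0.981 ± 0.129 CPM in the sgSgf29 libraries and 0.658 ± 0.308 CPM in the sgCtrl libraries and a 95% interval of -0.29 to 1.34 for its log2 fold change (adjusted p = 0.24). Cdkn3, a phosphatase that acts on CDKs, averaged 19.1 ± 1.14 CPM in the sgSgf29 libraries and 22.5 ± 2.78 CPM in the sgCtrl libraries. Its log2 fold change was -0.23 (adjusted p = 0.051, 95% interval -0.45 to -0.02), and without sgCtrl replicate 3 the adjusted p was 0.0048. Of the remaining genes named for Cdkn2a, Cdkn2aipnl was lower (-0.25, adjusted p = 0.003) with TMM and not with library size scaling (adjusted p = 0.8), and Cdkn2aip did not pass (0.13, adjusted p = 0.31).

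Of the 3 pocket proteins, the repressors that hold E2F factors, Rb1 and Rbl2 were higher in the sgSgf29 cells and Rbl1 did not pass. Rb1, the retinoblastoma gene, on chromosome 14 from 73192858 to 73325951, had 41.4, 39.1 and 42.7 CPM in the sgSgf29 libraries, against 22.8, 23.2 and 26.7 CPM in the sgCtrl libraries. It was higher without overlap, 0.76 (SE 0.08, adjusted p = 1e-07). Its exons overlap those of Rcbtb2, which was far higher in the sgSgf29 cells, with a log2 fold change of 2.09 (adjusted p = 8e-16), and of Lpar6, at 0.08. These overlapping genes were looked at after the Rb1 values were seen, and their part in the Rb1 value was not tested.

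Rbl2, which encodes p130 and is the pocket protein of resting cells, had 51.7, 54.1 and 53.5 CPM in the sgSgf29 libraries, against 39.6, 40.5 and 36.7 CPM in the sgCtrl libraries. It also rose without overlap (log2 fold change 0.45, SE 0.07, adjusted p = 1.1e-05). Rbl1, which encodes p107 and is itself an E2F target, had 39.96, 47.1 and 47.7 CPM in the sgSgf29 libraries, against 47.5, 44.5 and 46.2 CPM in the sgCtrl libraries. Its groups overlapped, with a log2 fold change of -0.03 (95% interval -0.20 to 0.13, adjusted p = 0.71), and it was 0.20 (adjusted p = 0.037) with library size scaling and 0.05 without sgSgf29 replicate 1. Per exon length the share of Rbl1 among the 3 was 35.1% ± 2.06 in the sgSgf29 libraries and 45.6% ± 1.06 in the sgCtrl libraries, and that of Rb1 was 32.01% ± 1.75 in the sgSgf29 libraries and 23.9% ± 1.96 in the sgCtrl libraries.

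Of the E2F and DP factors, 5 of 10 tested were lower and 1 was higher with TMM (34.4% and 35.4% of all genes). Library size scaling gave 2 lower and 3 higher, against 2385 lower and 5575 higher of all 11169 genes. E2f2, an activator E2F, on chromosome 4 from 136172274 to 136196057, was the exception, with 179, 178 and 172 CPM in the sgSgf29 libraries, against 108, 117 and 94.1 CPM in the sgCtrl libraries. Its groups were far apart, with a log2 fold change of 0.73 (SE 0.07, adjusted p = 2e-08). E2f1, the activator best known for S phase genes and for apoptosis, had 52.9, 53.7 and 56.3 CPM in the sgSgf29 libraries, against 75.8, 67.8 and 72.4 CPM in the sgCtrl libraries. Every sgSgf29 value was lower, -0.41 (SE 0.07, adjusted p = 2e-05).

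E2f3, the remaining activator, had 22.8, 23.8 and 22.8 CPM in the sgSgf29 libraries, against 24.02, 25.4 and 24.4 CPM in the sgCtrl libraries. Its libraries did not overlap, but the difference did not pass, -0.09 (95% interval -0.27 to 0.09, adjusted p = 0.38), and its sign was positive (0.15) with library size scaling. E2f4, the E2F that joins p107 and p130 in repression, had 71.96, 67.8 and 78.2 CPM in the sgSgf29 libraries, against 96.7, 97.2 and 109 CPM in the sgCtrl libraries. It fell, -0.48 (SE 0.07, adjusted p = 5.3e-06). Tfdp1, which encodes the DP1 partner with which E2F1 to E2F6 bind DNA, had 212, 231 and 220.5 CPM in the sgSgf29 libraries, against 275, 277 and 267 CPM in the sgCtrl libraries. It fell without overlap (log2 fold change -0.31, SE 0.06, adjusted p = 0.00019), and with library size scaling the change was -0.07 (adjusted p = 0.3).

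E2f7 and E2f8, the atypical E2Fs that repress E2F targets late in S phase, did not pass. E2f7 had 12.5, 11.2 and 12.9 CPM in the sgSgf29 libraries, against 9.53, 11.8 and 10.99 CPM in the sgCtrl libraries, and E2f8 had 52.8, 58.3 and 63.4 CPM in the sgSgf29 libraries, against 48.8, 56.3 and 56.1 CPM in the sgCtrl libraries. Their 95% intervals were -0.08 to 0.44 and -0.05 to 0.28 (adjusted p = 0.2 for each), and both passed as higher with library size scaling (adjusted p = 0.0066 and 0.0011). Of the rest, the repressor E2f6 (-0.26, adjusted p = 0.021) and the DP2 gene Tfdp2 (-0.29, adjusted p = 0.014) fell, and E2f5 did not pass (-0.16, adjusted p = 0.52). The call of E2f6 was lost without sgSgf29 replicate 1 (adjusted p = 0.15) or sgCtrl replicate 1 (0.095), that of Tfdp2 without sgSgf29 replicate 1 (0.056), sgSgf29 replicate 2 (0.072) or sgCtrl replicate 3 (0.079), and both with library size scaling (0.8 and 0.64). Within the E2F family per exon length, E2f2 made up 34.3% ± 1.74 in the sgSgf29 libraries and 20.1% ± 2.31 in the sgCtrl libraries, E2f4 28.1% ± 1.29 in the sgSgf29 libraries and 37.9% ± 2.27 in the sgCtrl libraries and E2f1 16.3% ± 0.124 in the sgSgf29 libraries and 21.03% ± 1.32 in the sgCtrl libraries.

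Of 10 tested genes that act on RNA polymerase II or on splicing, 6 were lower and 3 higher (34.4% and 35.4% of all genes). Cdk7, the CDK-activating kinase that also phosphorylates the polymerase in TFIIH, had 39.6, 38.4 and 40.9 CPM in the sgSgf29 libraries, against 61.1, 60.6 and 58.7 CPM in the sgCtrl libraries. Ccnh, its cyclin, had 33.9, 36.96 and 34.6 CPM in the sgSgf29 libraries, against 55.8, 50.95 and 63.8 CPM in the sgCtrl libraries. Both fell without overlap, with log2 fold changes of -0.60 (SE 0.07, adjusted p = 1.3e-07) for Cdk7 and -0.69 (SE 0.08, adjusted p = 2.4e-07) for Ccnh.

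The Mediator kinases took opposite directions. Cdk8 had 32.3, 34.5 and 29.1 CPM in the sgSgf29 libraries, against 56.2, 62.2 and 45.1 CPM in the sgCtrl libraries. It fell without overlap (log2 fold change -0.76, SE 0.10, adjusted p = 7.5e-07), whereas its paralog Cdk19 was higher, averaging 32.7 ± 3.11 CPM in the sgSgf29 libraries and 21.2 ± 1.37 CPM in the sgCtrl libraries (SD, n = 3 each), with a log2 fold change of 0.63 (adjusted p = 4.8e-06). Ccnc, the cyclin of both, was higher as well (0.49, adjusted p = 0.00088).

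Ccnl2, a cyclin tied to splicing, had 172, 179 and 149 CPM in the sgSgf29 libraries, against 309.7, 319 and 228 CPM in the sgCtrl libraries. It fell without overlap, -0.77 (SE 0.10, adjusted p = 5.7e-07), and Ccnl1 fell too (-0.44, adjusted p = 9.1e-05). Ccnk, the cyclin of Cdk12 and Cdk13, was lower (-0.20, adjusted p = 0.013), but its value was positive (0.03, adjusted p = 0.69) with library size scaling, and its call was lost without sgSgf29 replicate 1 (0.055) or 2 (0.1). Cdk13 was higher (0.25, adjusted p = 0.021), a call lost without sgSgf29 replicate 2 (0.16), sgSgf29 replicate 3 (0.051) or sgCtrl replicate 3 (0.11), and Cdk12 did not pass (0.11, adjusted p = 0.34).

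Of 9 further cyclins and CDKs tested, 3 were higher and 1 was lower (35.4% and 34.4% of all genes), against 7 higher and 1 lower with library size scaling. That scaling gave 5575 higher and 2385 lower among all 11169 genes. Ccng2, a cyclin that rises in cells leaving the cycle, had 82.6, 88.6 and 81.7 CPM in the sgSgf29 libraries, against 47.3, 47.1 and 52.5 CPM in the sgCtrl libraries. It was higher without overlap, 0.78 (SE 0.07, adjusted p = 3.5e-09). Ccni had 252, 246 and 254 CPM in the sgSgf29 libraries, against 181, 189.6 and 214 CPM in the sgCtrl libraries. It was higher, 0.36 (SE 0.07, adjusted p = 8.5e-05).

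Cdk20, which can act as a CDK-activating kinase, had 14.5, 14.8 and 14.02 CPM in the sgSgf29 libraries, against 9.79, 12.1 and 11.2 CPM in the sgCtrl libraries. It was higher without overlap (log2 fold change 0.39, SE 0.12, adjusted p = 0.0052). Cdk10, whose partner is cyclin M, had 47.99, 46.7 and 43.4 CPM in the sgSgf29 libraries, against 81.3, 82.2 and 65.1 CPM in the sgCtrl libraries. It was the only one of these that fell, -0.72 (SE 0.08, adjusted p = 1.4e-07). Ccnj, Cdk5, Cdk16, Cdk17 and Cdk18 did not pass, with log2 fold changes of 0.11, 0.04, 0.14, 0.17 and 0.15. Cdk16 passed without sgSgf29 replicate 1 (adjusted p = 0.035) and Cdk17 without sgCtrl replicate 1 (0.031).

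Paralogs were also set against each other within each library, as the log2 ratio of their counts, which does not depend on scaling between libraries. Of 10 pairs, 7 had no overlap between the groups. Single genes had none in 72.1%, but that share is of another measure, and none was computed for ratios of other pairs. The ratio of Cdc25a to Cdc25b was 0.87 ± 0.16 in the sgSgf29 libraries and 3.06 ± 0.22 in the sgCtrl libraries (SD, n = 3 each), a difference of -2.19 that was the largest of the 10. The ratio of Cdk8 to Cdk19 was -0.03 ± 0.24 in the sgSgf29 libraries and 1.35 ± 0.26 in the sgCtrl libraries, and that of Ccnd2 to Ccnd3 -2.69 ± 0.13 in the sgSgf29 libraries and -1.46 ± 0.10 in the sgCtrl libraries.

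The other 4 pairs without overlap had smaller differences. These were 1.15 for Cdkn2c to Cdkn2d, -0.69 for Ccnb1 to Ccnb2, -0.49 for Rbl1 to Rbl2 and -0.48 for Cdk4 to Cdk6. Each of the 7 reached 0.1, the smallest p of the exact two-sided permutation test here (adjusted p = 0.143 over 10 pairs). The overlapping pairs were Ccne1 to Ccne2, E2f7 to E2f8 and E2f1 to E2f4, with differences of 0.04, 0.07 and 0.07 (exact permutation p = 0.8, 0.7 and 0.4).

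**Figure D4:**
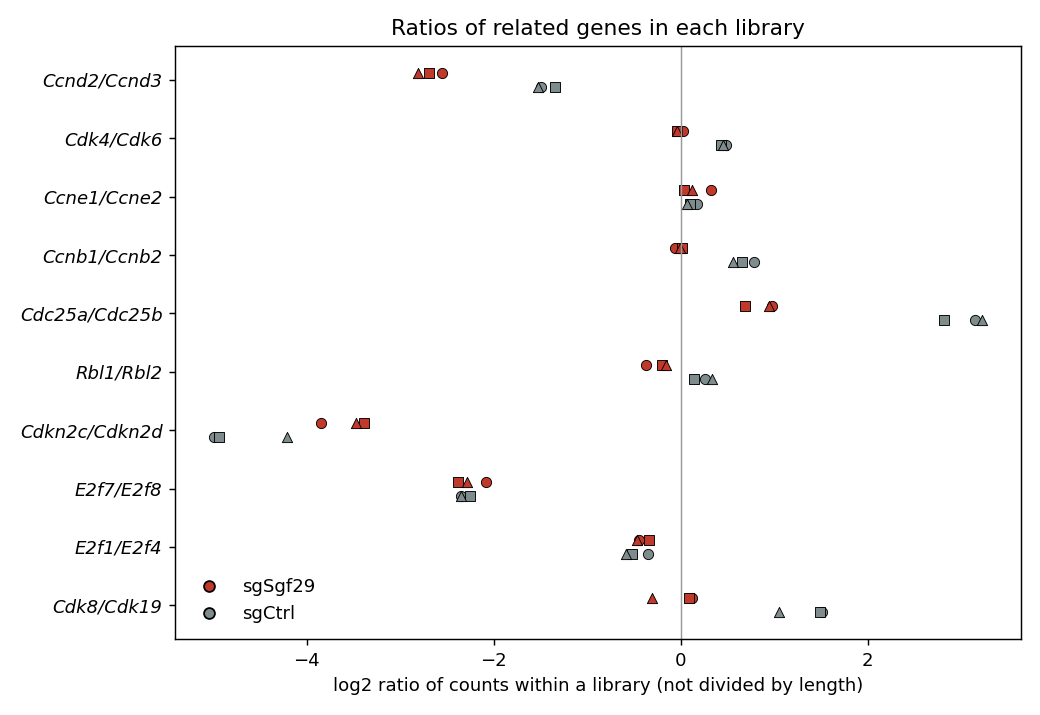
Log2 ratio of counts within each library (horizontal axis, not divided by length) for 10 pairs of paralogs, with a point for each library and the sgSgf29 points above the sgCtrl points of a pair. The points of the groups are apart for 7 pairs, with the largest difference, -2.19, for Cdc25a to Cdc25b.

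Genes outside the rule were counted in separate lists, among them E2F targets of DNA replication and genes of G2 and M phase. The E2F target list was not chosen blind to these data. Of its 25 genes of DNA replication, 24 were lower and 0 higher in the sgSgf29 cells in edgeR (0 higher at an unadjusted p under 0.05, in DESeq2 and in limma-voom too), against 34.4% lower among all genes, with a median log2 fold change of -0.55 and summed levels of 2462 to 2771 CPM in the sgSgf29 libraries and 3744 to 4014 CPM in the sgCtrl libraries. Rrm2 fell by 1.52 (adjusted p = 5.9e-13), Orc1 by 1.35 (adjusted p = 4e-09), and the replication factors Pold1 and Cdt1 by 0.98 and 0.86 on the log2 scale. Pcna, the sliding clamp, was the gene that did not pass (0.16, adjusted p = 0.095). With library size scaling 19 were lower and 1 higher, against 2385 lower and 5575 higher of all 11169 genes.

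Of 24 genes of G2 and M phase tested, 13 were lower and 0 higher in edgeR (likewise 0 at an unadjusted p under 0.05, in DESeq2 and in limma-voom), with a median of -0.22, among them Bub1 (-1.13) and Ttk (-0.91) of the spindle checkpoint, Aurka (-0.64) and the ubiquitin enzyme Ube2c (-0.62). The other 11 did not pass, with values between -0.22 for Nek2 and 0.17 for Nusap1, and Plk1 at -0.12 and Mki67 at -0.10. Library size scaling gave 7 lower and 3 higher with a median of 0.01. With TMM, 34.4% of all genes were lower and 35.4% higher, which is the background for each list here. With library size scaling the background was 2385 lower and 5575 higher of 11169 genes. In the DREAM and MYB-MuvB complex 2 of 7 fell and 2 rose, with Mybl2, the MYB subunit of the S phase, at -1.19 and Lin52 at 0.49, while library size scaling gave 1 lower and 3 higher. Of 18 ubiquitin ligase genes for cyclins, inhibitors and E2F, 5 fell and 6 rose, among them Fbxo5, the inhibitor of the anaphase-promoting complex, at -0.85 and Fbxo31 at 0.96 (2 and 13 with library size scaling). Of 18 related cyclins, CDKs and partners outside the rule, 6 fell and 6 rose (3 and 9 with library size scaling), and the Cdk1-inhibiting kinase Pkmyt1 fell with Wee1 (-1.12, adjusted p = 1.1e-11).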

How the data were processed

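The authors deposited raw counts per gene in 1 table. According to the paper, reads were aligned with STAR, counted with featureCounts and analysed with edgeR. The processing notes of the submitters list STAR 2.6.0a and GRCm38, and the table has 5 bookkeeping entries of the htseq-count kind, which held 25.8% to 31.4% of a library and were left out. Annotation and strand setting: not given in the sources used here. The 6 RNA libraries were grouped by their labels, and the other samples among the 14 were not analysed here.

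Genes passing edgeR's filterByExpr (10 counts at the median library size, 15 in total) were normalised by TMM and fitted with glmQLFit in edgeR 4.0.16 under R 4.3.3, where the biological coefficient of variation was 6.61%. Depth was 16003990 to 21786618 gene counts per library. Within-group pairs of libraries all differed beyond sampling noise, at 4.60 to 16.0 chi-square units per degree of freedom. Alternatives replaced TMM (RLE, upper quartile, library size, TMM with ribosomal protein genes removed), the tool (limma-voom in limma 3.58.1, DESeq2 1.42.0), the filter or the threshold, added a replicate block, or left out each library. The code was tested on simulated data. Paralog ratios used a prior count of 0.5, and shares and levels per kb used GENCODE exon lengths on GRCm38. This length joins all annotated exons of a gene, so levels and shares compared between genes depend on it.

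Members and gene lists were chosen with earlier results of these data known. Per-library values are given for a fixed set of members and up to 4 of each role with the smallest adjusted p, and each list outside the rule is represented by up to 4 genes chosen likewise. Exceptions named after their values were seen are Pcna, Rcbtb2 and Lpar6, and S100a8, S100a9 and Elane, which carried their lists' sums. So are Ly6c2, Ltf, Camp, Ptprc, Spi1, Meis1, Plk1, Mki67, Nek2 and Nusap1, which went against their list or did not pass.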

Additional observations from a re-analysis of the deposited data

How the results depend on the processing

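Counts of lower and higher members were 29 and 16 with TMM, 18 and 25 with library size scaling, and 13 and 7 at a change of at least 1.5-fold. Leaving out 1 library gave 26 to 29 lower and 14 to 17 higher, with 6 members losing a call in some such fit, 3 gaining one and no called member changing sign. Among all genes these fits gave 3430 to 3833 lower and 3662 to 3943 higher, of 11213 to 11325 tested. Library size scaling moved the share of lower calls among all genes to 30.0%, against 49.3%, kept 37 of 60 members in direction and call, ended 11 calls, added 9 and changed 5 signs (Ccnk and Rbl1 among both kinds of change), with the log2 fold changes 0.16 for Ccnd1, 0.20 for Rbl1, 0.15 for E2f3, 0.072 for E2f5 and 0.033 for Ccnk. DESeq2 and limma-voom changed no member's call. Cdkn3 passed with RLE scaling (adjusted p = 0.041), with TMM without ribosomal protein genes (0.044) and with no filter (0.046), and Cdk16 and Cdk17 passed with upper-quartile scaling (0.042 and 0.049).

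Over the fits without 1 library, the log2 fold change ranged between -0.28 and 0.18 for Ccnd1, -0.069 and 0.050 for Rbl1, -0.027 and 0.26 for Ccnj and -0.021 and 0.12 for Cdk5, none of which passed the test. The difference in log2 ratio ranged between -0.037 and 0.11 for Ccne1 to Ccne2 and between -0.017 and 0.13 for E2f7 to E2f8, and the difference in share between -0.619 and 1.75 percentage points for Ccne1 and between -1.75 and 0.619 for Ccne2, with the changed sign without sgSgf29 replicate 1.

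Same-numbered libraries of the groups were not paired, since the replicate number is not stated to be a shared batch. The deviations of same-numbered libraries correlated at 0.005, 0.055 and 0.078, and not every library correlated best with its own number, which does not settle whether they are pairs. With the replicate number as a block, 29 members were lower and 16 higher, no member's call changed, and 7996 genes passed against 7799. Depth limits Ccnd1 and Cdkn2b most, whose counts are the lowest of those tested.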

Other observations

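The sgSgf29 libraries differed among themselves in the mitotic genes, though not only in these. Of the 6 tested genes of the B cyclins, Ccnf, Cdk1 and the Cks adaptors, all 6 were highest within the group in sgSgf29 replicate 3 and 5 were lowest in sgSgf29 replicate 1. Their summed level was 486, 523 and 582 CPM in sgSgf29 replicates 1, 2 and 3, against 763, 735 and 773 CPM in the sgCtrl libraries. The E2F targets of DNA replication had the same order, with sums of 2462, 2638 and 2771 CPM in sgSgf29 replicates 1, 2 and 3. The D cyclins with Cdk4 and Cdk6 did not, with 1035, 992 and 993 CPM. This role was picked after its values were seen, and the share over all genes was not computed. Sgf29 itself was also highest in sgSgf29 replicate 3, at 17.4 CPM, beside 12.6 and 13.4 CPM in the others, and whether these values are linked was not tested.

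Sums over roles gave another view of the same libraries. The pocket proteins summed to 133 to 144 CPM in the sgSgf29 libraries and 108 to 109.9 CPM in the sgCtrl libraries, and the 7 inhibitors to 225 to 228 CPM in the sgSgf29 libraries and 188 to 206 CPM in the sgCtrl libraries, where 3 were called higher and 2 lower. With Cdkn2aip and Cdkn2aipnl, inhibitor sums overlapped, at 351 to 359 CPM in the sgSgf29 libraries and 334 to 361 CPM in the sgCtrl libraries. The further cyclins and CDKs also had higher sums in the sgSgf29 cells. Sums were lower without overlap for D cyclins, E and A cyclins and B cyclins, each with the kinases of their role. They were also lower for Wee1 and Cdc25, for E2F and DP, and for genes acting on RNA polymerase II or splicing.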
